A study of Rattus norvegicus with 4 samples.

Results

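The 10 genes described here encode AP-1 transcription factors and other products of the immediate early response: Fos, Fosb, Fosl1 and Fosl2 of the FOS family, Jun, Junb and Jund of the JUN family, the related factor Atf3, the zinc finger factor Egr1 and the survival gene Ier3. They were chosen by name, as probes whose transcript accession maps to the rat symbol, and all 10 were on the array, out of 16506 genes with a RefSeq symbol. They were represented by 14 probes on 34 spots. The series measured NR8383 cells, an established rat alveolar macrophage line obtained by lung lavage of a normal rat. It holds 1 group, labelled as a fetal bovine serum control, with the added letters ALI that are not spelled out. The cells, after 20 passages, were kept for 4 h in DMEM medium with 10% fetal bovine serum. The labels also give 15% serum for growth, 25 cm2 flasks and 48 h for seeding. RNA from 4 biological replicates of this 1 line was hybridised to 4 one-colour Agilent arrays, 1 per replicate. No other group, such as serum-starved or stimulated cells, belongs to the series. What follows therefore gives levels, the spread between replicates and how single replicates differed, with no comparison between conditions.

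Immediate early genes are transcribed within minutes of a stimulus such as serum, stress or a microbial product, from factors already present in the cell and without new protein synthesis. AP-1 is a dimer of basic leucine zipper (bZIP) proteins: JUN proteins pair with each other or with FOS proteins, whereas FOS proteins need a partner, and the dimer binds the AP-1 site or the related cyclic AMP response element. In macrophages AP-1 and EGR1 take part in the response to serum and to microbial products, and the messenger RNAs of most of these genes are short-lived.

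RefSeq start windows, which run from 250 bases before to 50 bases after the transcript start on the GRCr8 assembly, were held for 6 of the 10 genes (Fosb, Fosl1, Fosl2, Junb, Jund and Egr1). A total of 5 motifs were searched on both strands: the AP-1 site TGACTCA, the cyclic AMP response element TGACGTCA, the CArG box bound by serum response factor, the EGR site GCGGGGGCG and the TATA box TATAAA. None of these motifs overlapped another in the matches found. On replicate 1 Egr1 was higher, Jund slightly higher, and Junb and Fosl2 lower, as given below. Fosb and Fosl1, whose windows are not printed, were also higher there, by 0.30 and 0.31 log2 units. Whether motifs go with these levels was not tested. The windows of Egr1, Jund, Junb and Fosl2 are shown, matches in capitals.
Egr1: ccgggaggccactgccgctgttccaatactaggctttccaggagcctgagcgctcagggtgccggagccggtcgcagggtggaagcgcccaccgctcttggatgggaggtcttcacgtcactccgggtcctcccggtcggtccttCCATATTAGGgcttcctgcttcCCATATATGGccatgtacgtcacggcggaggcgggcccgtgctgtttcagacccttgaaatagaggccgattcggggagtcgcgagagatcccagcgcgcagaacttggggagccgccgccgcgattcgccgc
Jund: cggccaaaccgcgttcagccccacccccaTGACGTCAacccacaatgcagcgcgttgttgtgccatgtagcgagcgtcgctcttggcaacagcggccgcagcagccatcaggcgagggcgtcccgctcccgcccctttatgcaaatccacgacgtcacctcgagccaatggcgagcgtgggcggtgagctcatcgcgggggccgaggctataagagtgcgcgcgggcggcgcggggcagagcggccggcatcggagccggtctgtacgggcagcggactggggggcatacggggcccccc
Junb: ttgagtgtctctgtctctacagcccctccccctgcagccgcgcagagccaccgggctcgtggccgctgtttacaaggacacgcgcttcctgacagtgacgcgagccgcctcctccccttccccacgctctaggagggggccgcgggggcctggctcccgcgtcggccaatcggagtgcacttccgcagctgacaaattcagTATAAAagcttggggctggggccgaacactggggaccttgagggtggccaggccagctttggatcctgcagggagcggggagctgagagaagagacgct
Fosl2: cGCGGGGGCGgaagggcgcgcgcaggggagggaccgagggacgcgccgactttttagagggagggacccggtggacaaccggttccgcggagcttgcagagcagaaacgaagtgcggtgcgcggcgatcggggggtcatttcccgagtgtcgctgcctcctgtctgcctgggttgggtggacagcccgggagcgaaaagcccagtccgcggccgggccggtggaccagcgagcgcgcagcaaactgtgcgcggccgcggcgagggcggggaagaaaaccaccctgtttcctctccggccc
The Egr1 window lies at chr18:26736828-26737127 on the plus strand, that of Jund at chr16:18769722-18770021 on the minus strand, that of Junb at chr19:40080876-40081175 on the plus strand and that of Fosl2 at chr6:30039220-30039519 on the minus strand. Egr1 carried a pair of CArG boxes, which begin 105 and 83 bases before the start. A CArG box was present in 1.64% of all 33469 windows of this length. Jund carried a cyclic AMP response element beginning 221 bases before the start (1.83% of all windows), Junb a TATA box 49 bases before it (14.2%), and Fosl2 an EGR site 249 bases before it (2.73%). The Fosb window held a TATA box match on the opposite strand, the Fosl1 window held none of the 5 motifs, and the AP-1 site, found in 4.63% of all windows, was in none of the 6. The transcript start used for Fosb differs from the annotated end of that gene, so the place of its match is uncertain. These are matches of letters and not measured binding sites.

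**Figure D1:**
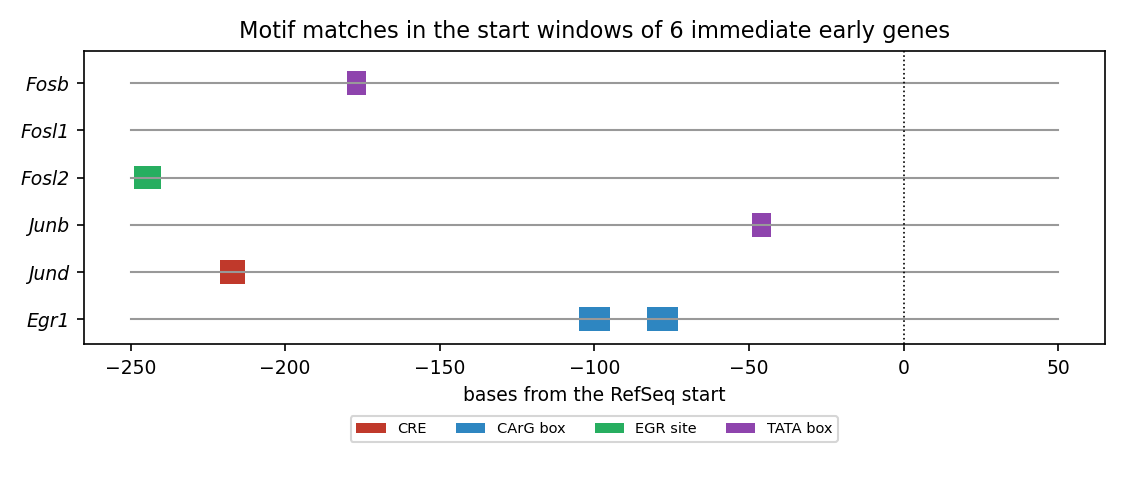
Map of the start windows of 6 immediate early genes, with bases from the RefSeq start on the horizontal axis and 1 gene per line; coloured blocks are motif matches on either strand. The pair of CArG boxes of Egr1 lies 105 and 83 bases before the start, and Fosl1 shows no match. The start used for Fosb differs from the annotated end of that gene.

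Levels are the log2 of the background-handled spot signal minus the log2 of the array's own 75th percentile, so that 0 is the 75th percentile of all transcript probes on that array, and the level of one gene cannot be set against that of another. The arrays differed in brightness. Their 75th percentiles were 83.4, 112, 126 and 167 in replicate order, and replicate 1 had 50.9% of its spots well above background, against 53.9% to 58.9% for the rest. The number of arrays limits the precision, and no spot was saturated. A gene counted as detected if, for at least 1 of its probes, most spots carried the scanner software's flag for a signal well above background on every array. All 10 macrophage markers looked for, among them Cd68 and Spi1, were detected. Of 14 measured genes listed as markers of other cell types, Pecam1 and Cdh5, listed for endothelium, were detected and 10 passed on no array. Whether other cells were present was not tested. Each array holds the RNA of a whole culture, in which fewer cells expressing a gene and less RNA per cell cannot be told apart.

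Of the 10 genes, 6 were detected on all 4 arrays (Fosl2, Jun, Junb, Jund, Atf3 and Ier3), 3 on 3 arrays (Fos, Fosb and Egr1) and 1 on none (Fosl1). Over all genes with a symbol 53.1% were detected on all 4 arrays and 34.4% on none, so 6 of 10 was near the background. The FOS family was thus represented above background on every array by Fosl2 alone, while all 3 JUN genes were. Fos, Fosb and Egr1 passed a looser call, a limma test of their mean signal against the 95th percentile of the negative control spots, and Fosl1 did not. That call was met by 70.1% of all genes. The scanner software's positive-and-significant flag, met by 66.9% of all genes, was set on every array for the 6 genes, Fosb and Egr1.

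**Figure D2:**
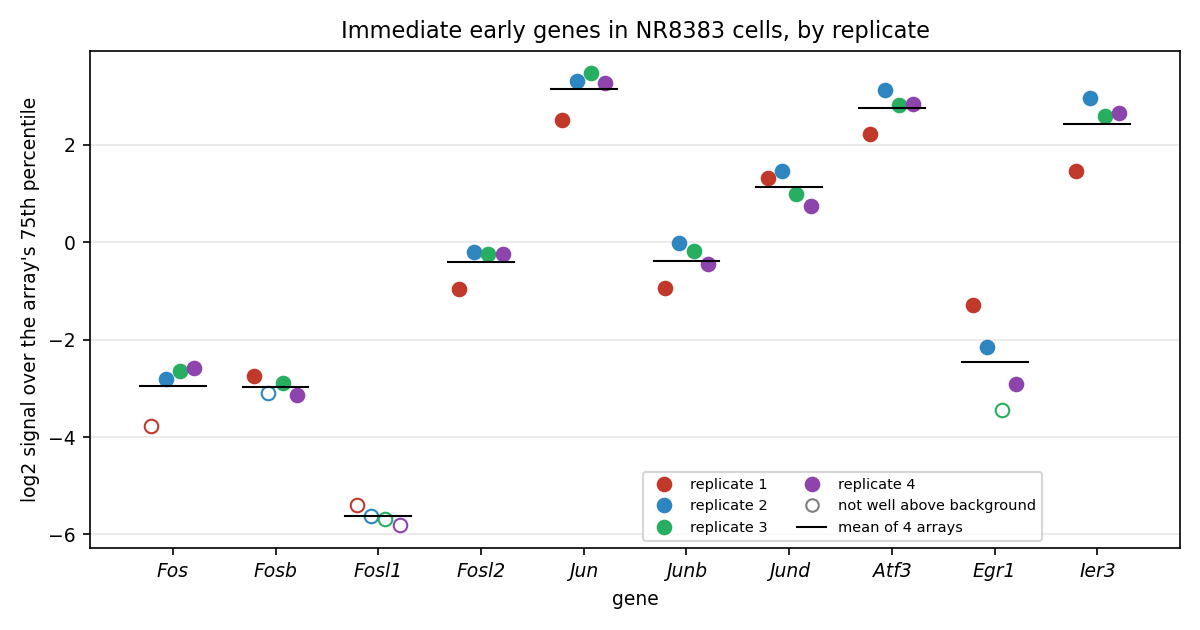
Level of each of the 10 genes (log2 signal over the array's 75th percentile) on the 4 replicates, with the mean as a bar and open circles where the gene was not well above background. Replicate 1 is the lowest point for Fos, Fosl2, Jun, Junb, Atf3 and Ier3 and the highest for Fosb, Fosl1 and Egr1. Fosl1 was well above background on no array. In unscaled signal Fosb and Fosl1 were lowest on replicate 1, unlike Egr1.

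Fos, the prototype of the family and a gene that serum induces strongly and briefly, gave dim signals. Its 2 spots read 11.2 and 3.27 on replicate 1, where the second was not above background, 14 and 18.4 on replicate 2, 24.4 and 16.6 on replicate 3 and 25.5 and 30.2 on replicate 4. The 95th percentile of the negative controls lay between 3.07 and 3.6 on the 4 arrays. Fos was therefore dim but above that limit on 3 arrays, and on replicate 1 its second spot lay on the border of it. Its level was -3.78, -2.80, -2.65 and -2.59 on replicates 1 to 4 (mean -2.96 ± 0.56 SD, n = 4), and the mean lay 2.21 ± 0.45 (SE) log2 units over the negative-control limit (limma, one-sided, adjusted p = 0.000441). Replicate 1 was the low array, and its value rests in part on a spot that was not measured above background. With normexp background correction its difference from the mean of the others turned from -1.10 to 0.17. The offset of 50 added in that correction exceeds all of these spot signals, so the turn is in part set by the offset.

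Fosb, a relative of Fos that also depends on a JUN partner, read 12.5, 13.2, 17 and 19.1 in signal on replicates 1 to 4. The spot on replicate 2 was not well above background although its signal exceeded that on replicate 1. Scaled to each array the levels lay between -3.13 and -2.74 (mean -2.96 ± 0.18 SD, n = 4), and limma placed Fosb 2.20 ± 0.39 (SE) log2 units over the negative-control limit (adjusted p = 0.000147). The 4 replicates of Fosb lay closer together than those of Fos.

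Fosl1, which encodes FRA-1 and in many cells follows Fos with a delay, gave signals of 1.98, 2.27, 2.46 and 2.98 on replicates 1 to 4. All 4 lay below the negative-control limit of their array, and each was close to its own error estimate. The limma test did not place it above the limit (adjusted p = 0.9995). The measurement is a bound set by its single probe: Fosl1 was not detectable here.

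Fosl2, which encodes FRA-2, was the FOS gene with a measured level on every array. The level was -0.95, -0.19, -0.24 and -0.24 on replicates 1 to 4 (mean -0.40 ± 0.37 SD, n = 4). On this average of 3 probes, replicates 2 to 4 lay nearly on top of each other, and replicate 1 stood 0.73 log2 units, 1.66-fold, below their mean. On the single probes replicates 2 to 4 were farther apart and in different orders. They ran from -0.44 to -0.30, from -0.07 to 0.12 and from -0.48 to -0.20. All 3 probes of the gene were lower on replicate 1, by 1.18, 0.65 and 0.36 log2 units below the mean of the other arrays, so they shared the direction and differed in size.

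Jun encodes the central JUN protein, which is activated by the JUN N-terminal kinases and can drive its own promoter. Its level was 2.51, 3.31, 3.47 and 3.28 on replicates 1 to 4 (mean 3.14 ± 0.43 SD, n = 4). Replicate 1 lay 1.80-fold below the mean of the others, outside their range. Both probes had this order, with replicate 1 lower by 0.72 and by 0.98 log2 units. One of them was printed on 10 spots, whose levels on replicate 1 ran from 2.10 to 2.68, while the lowest spot on any other array read 2.78. The SD between arrays for that probe was 0.39 and the median SD between spots of an array 0.14.

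Junb, a JUN protein that is a weaker activator than Jun on many promoters, was measured by 1 spot per array. Its level was -0.93, -0.01, -0.19 and -0.45 on replicates 1 to 4 (mean -0.39 ± 0.40 SD, n = 4). Replicate 1 was again the lowest, 1.64-fold under the mean of the others, and the remaining 3 were spread over a wider range than for Fosl2.

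Jund, the JUN gene that is expressed in resting cells and is the least dependent on stimulation, had another order. Its level was 1.31, 1.46, 0.996 and 0.746 on replicates 1 to 4 (mean 1.13 ± 0.32 SD, n = 4). These levels are the average of its 2 probes. Replicates 1 and 2 were the higher pair on both probes, and on the average no replicate was as much as 1.5-fold from the mean of the others. On the dimmer probe alone replicate 4 was past 1.5-fold, at -0.62 log2 units. Its probes read 43.6 to 62.7 and 981 to 1521 in signal, and both were well above background on all arrays. In unscaled signal both were lowest on replicate 1.

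Atf3, a bZIP factor induced by stress and by Toll-like receptor signalling that restrains inflammatory genes in macrophages, had a level of 2.22, 3.14, 2.83 and 2.84 on replicates 1 to 4 (mean 2.76 ± 0.38 SD, n = 4). Replicate 1 lay 1.64-fold below the mean of the others. On each array both of its spots gave the same picture: they read 446 and 340 in signal on replicate 1 and between 857 and 1236 on the other arrays.

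Ier3, also called Iex1, encodes a small protein that affects cell survival and is a target of NF-kB and stress kinases. Its level was 1.47, 2.97, 2.59 and 2.66 on replicates 1 to 4 (mean 2.42 ± 0.65 SD, n = 4). This was the widest spread among the 6 detected genes. Replicate 1 lay 2.41-fold below the mean of the others and replicate 2 lay 1.66-fold above it. The probe was printed 10 times per array. Its spots on replicate 1 had levels between 1.14 and 1.89, those on replicate 2 between 2.83 and 3.11, those on replicate 3 between 2.46 and 2.66 and those on replicate 4 between 2.59 and 2.81. No spot of replicate 1 reached the lowest spot of another array. The SD between spots was 0.27 on replicate 1 and from 0.064 to 0.095 elsewhere (median 0.080), and the SD between arrays was 0.65. Spots of 1 array share their RNA, so this shows the precision of each array's value and not the spread between cultures.

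**Figure D3:**
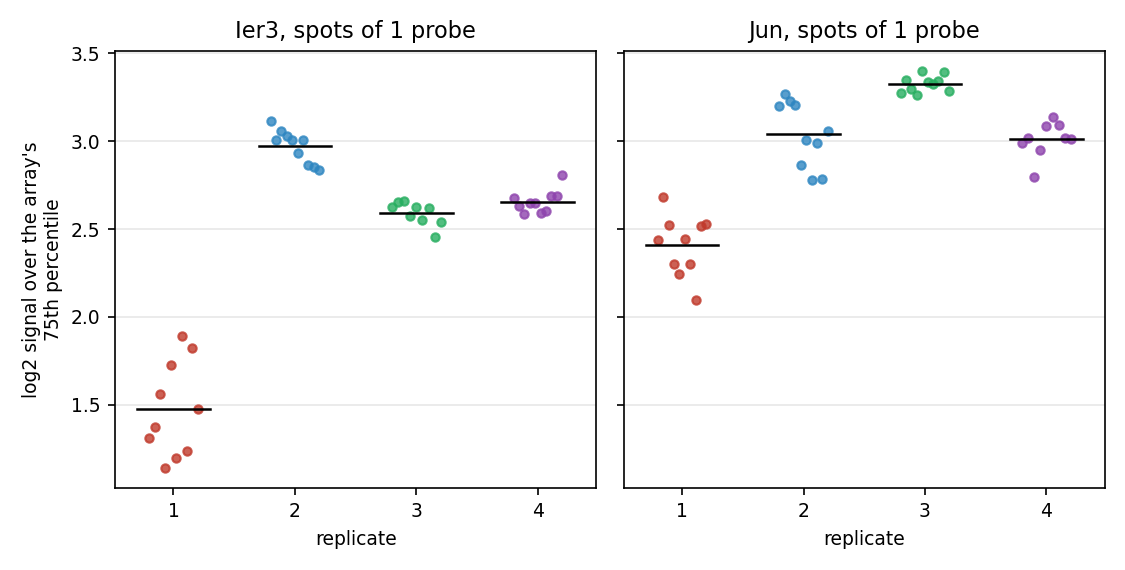
Level of each single spot (log2 signal over the array's 75th percentile) of the Ier3 probe and of the Jun probe that were printed 10 times per array, by replicate, without outlier spots; bars are means. For both genes all spots of replicate 1 (1.14 to 1.89 for Ier3, 2.10 to 2.68 for Jun) lie below all spots of the other replicates.

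Egr1, a zinc finger factor switched on by growth factors and serum through CArG boxes, went the other way. Its single spot read 34.0, 25.4, 11.6 and 22.1 on replicates 1 to 4, and on replicate 3 it was not well above background. The level was -1.29, -2.14, -3.45 and -2.92 in the same order (mean -2.45 ± 0.94 SD, n = 4), a range of 2.16 log2 units. Egr1 was thus highest on the replicate on which Jun, Junb, Fosl2, Atf3 and Ier3 were lowest, and it was higher there in unscaled signal also. Limma placed it 2.71 ± 0.39 (SE) log2 units over the negative-control limit (adjusted p = 2.37e-05). A single dim spot per array carries this value, and with normexp background correction the excess on replicate 1 over the mean of the others was 0.54 in place of 1.55. The offset of 50 in that correction exceeds all 4 signals and by itself shrinks differences between them.

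Replicate 1 therefore set most of the spread of the detected genes. On it 5 of the 6 detected genes (Fosl2, Jun, Junb, Atf3 and Ier3) were at least 1.5-fold lower than the mean of the other replicates and none was at least 1.5-fold higher. Among all 8772 detected genes 10.3% were at least 1.5-fold lower on replicate 1 and 14.5% at least 1.5-fold higher. The median difference on replicate 1 was -0.72 for the 6 genes and 0.07 for all detected genes. On replicate 2 the median was 0.48, with Ier3 alone past 1.5-fold higher (3.5% of all detected genes) and none past it lower (3.69%). On replicates 3 and 4 it was 0.22 and 0.14, and none of the 6 was past 1.5-fold, where 1.27% of all detected genes were higher and 1.22% lower on replicate 3, and 1.88% higher and 5.59% lower on replicate 4. The mean of the other arrays includes replicate 1 in these last values, and with replicate 1 left out, which made 7 genes detected, the medians were 0.30, -0.02 and -0.12. The median SD of the 6 genes was 0.39 against 0.24 for all detected genes, and over replicates 2 to 4 it was 0.19 against 0.15. One array has no spread of its own, so none of these differences was tested. After normexp background correction with an offset of 50, 3 of the 6 (Jun, Atf3 and Ier3) stayed past 1.5-fold lower on replicate 1, while Fosl2 read -0.33 and Junb -0.19, and 9.06% of all detected genes were lower. That offset weighs most on dim probes, and on replicate 1 Junb read 43.7 and the Fosl2 probes 28.4 to 67.1 in signal. The smaller differences of Fosl2 and Junb are thus in part set by the offset. Replicate 1 was also the dimmest array, on which 4 of the 10 macrophage markers, Csf1r, Pparg, Mrc1 and Fcgr2b, were at least 1.5-fold higher and Cd14 was lower (Fcgr2b and Cd14 were named after their values were seen). The summed signal of the 14 markers of other cell types, relative to the 75th percentile, was 3.32 on replicate 1 and from 1.6 to 2.19 elsewhere. Of the 2 detected on all arrays, Pecam1 was at least 1.5-fold higher on replicate 1 and Cdh5 was not. Pecam1 read 1.19 on replicate 1 and from -0.50 to 0.12 elsewhere, and was the brightest of the 14 on every array. The higher sum on replicate 1 thus follows this single gene and not the markers as a set. The part of array brightness and of these markers in the result was not tested.

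**Figure D4:**
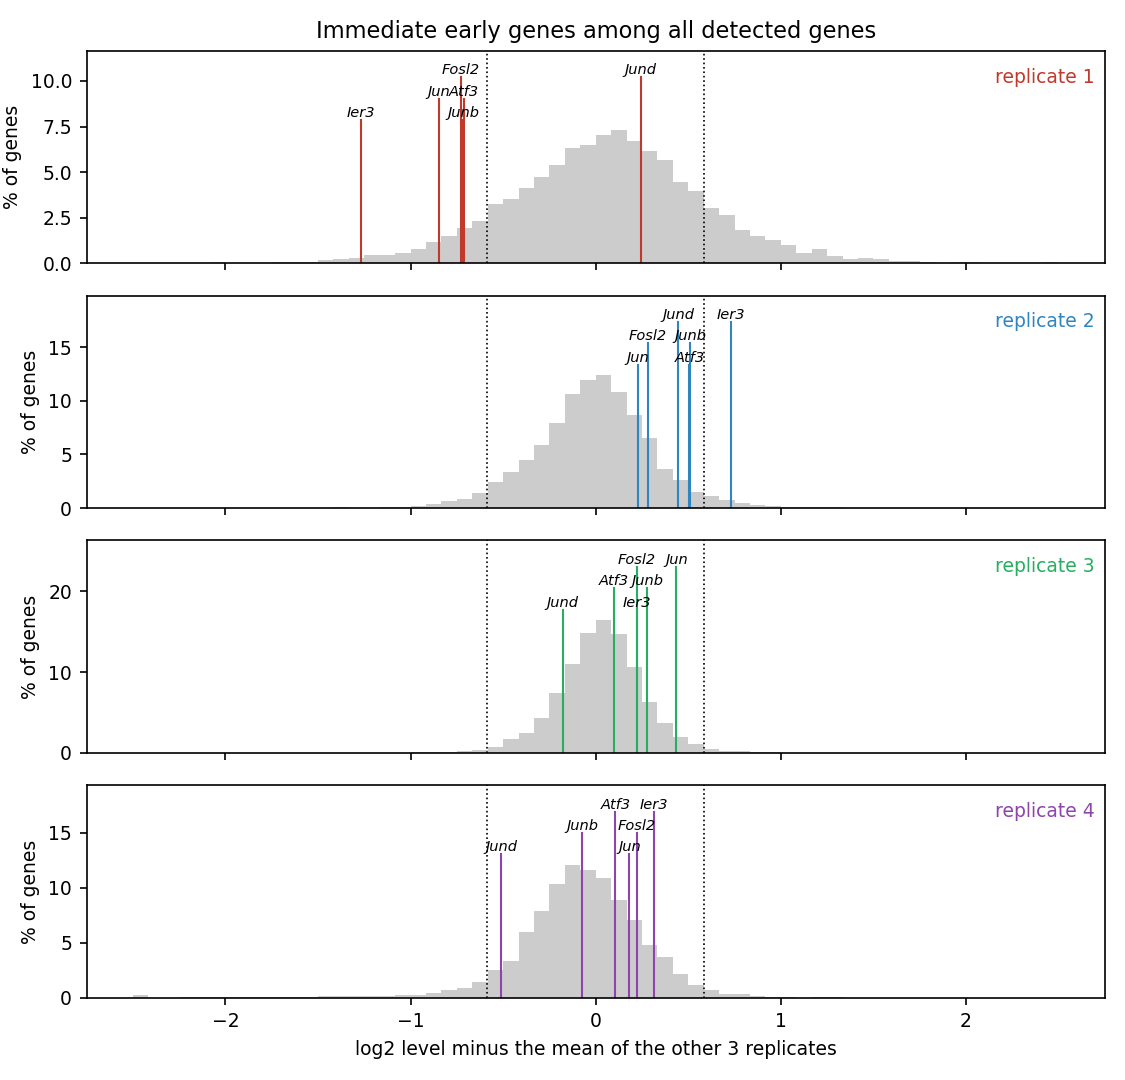
Difference of each replicate from the mean of the other 3 (log2 level) for the 6 detected immediate early genes, as lines, over the histogram of all 8772 detected genes, with the share of genes in percent on the vertical axis; dotted lines mark 1.5-fold and values beyond 2.5 log2 units are drawn at the edge. On replicate 1 the lines of 5 genes lie left of the dotted line at 1.5-fold lower, where 10.3% of all detected genes lie.

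Ier3, which had the largest SD of the 6 detected genes, was compared with all other detected genes by the root mean square difference of their 4 centred levels. Of these 8771 genes the most alike were Ro60, Zfand2a, Esco1, Dok2 and Nhsl3, with differences between 0.030 and 0.056 log2 units. Among the immediate early genes Atf3 was nearest (0.24, rank 317), followed by Jun (0.26, rank 406), Fosl2 (0.26, rank 412) and Junb (0.27, rank 418), and Jund was far (0.67, rank 5394). The ranks describe these 4 arrays and were not tested.

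Other bZIP factors, which can pair with JUN or FOS proteins or compete with them, were mostly present. Of 21 measured 18 were detected on all arrays, against 53.1% of all genes. Among them were the cyclic AMP-linked factors Atf1 (1.16 ± 0.13) and Atf2 (-1.13 ± 0.20), the amino acid and stress response factor Atf4 (6.24 ± 0.69) and Atf5 (2.98 ± 0.40). For Nrl no array passed, and for Atf7 3 did. On replicate 1, 6 of the 18 were at least 1.5-fold lower and 3 higher, beside 10.3% and 14.5% of all detected genes. Atf4 read 5.22 on replicate 1 and from 6.51 to 6.65 elsewhere, so that the groups of values did not touch. Chosen after their values were seen, the small MAF protein genes Maff and Mafg and the larger Maf were lower on replicate 1. They lay 1.3, 0.84 and 0.81 log2 units below the mean of the others. The small MAF gene Mafk, chosen likewise, read -1.06 on replicate 1, -0.62 on replicate 2 and -1.56 on replicate 3. Its difference of 0.48 on replicate 1 rests on a low value on replicate 4 (-2.43). Batf and Batf3, whose products pair with JUN proteins, were higher on replicate 1 by 0.68 and 0.88, also named after their values were seen. The largest deviation of a single gene, Cebpg at -3.78 on replicate 4, and the values of Mafk, Crem and Ddit3 on replicate 4 came from genes with a spot in an area of the slide that was dim on that array. No spot of the 10 immediate early genes lay in that area. Replicate 4 is part of the mean of the others. The call of Cebpg, among the 3 higher on replicate 1, thus rests in part on its low value on replicate 4. That of Ddit3, among the 6 lower, does not. Ddit3 read 3.46, 5.18, 4.33 and 2.85 on replicates 1 to 4, so its value on replicate 4 makes its difference on replicate 1 smaller.

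Of 27 other immediate early genes measured, 20 were detected on all arrays, against 53.1% of all genes, with Egr2 at 0.36 ± 0.09 and Egr3 at -2.08 ± 0.31, relatives of Egr1, Ier2 at 4.14 ± 0.21 on 1 of its 2 probes, and Ier5 at 1.89 ± 0.53. Egr4, the nuclear receptor Nr4a3 and Klf2 were among 6 that were well above background on no array. On replicate 1, 3 were at least 1.5-fold lower (Csrnp1, Klf6 and Dusp2) and 4 higher (Ier5, Klf10, Btg1 and Zfp36), counts near the 10.3% and 14.5% of all detected genes, and the median difference was 0.29. Csrnp1, a nuclear protein gene induced by AXIN1, moved most: it read -1.47, 1.15, 0.22 and 0.28 on replicates 1 to 4. Zfp36, which encodes the RNA-binding protein tristetraprolin that shortens the life of inflammatory messenger RNAs, read -1.87 on replicate 1 and from -2.96 to -2.55 elsewhere, and was, with Klf6, Dusp2, Klf10 and Btg1, named after its values were seen. Egr2 and Egr3 were within 0.27 log2 units of the mean of the others on replicate 1, unlike Egr1.

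The kinases and factors that act upstream of these genes were nearly all present. Of 27 measured, 23 were detected on all arrays, against 53.1% of all genes, among them the ERK gene Mapk3 (9.75 ± 0.48), the JNK gene Mapk9 (0.18 ± 0.47) on 2 of its 3 probes, and the p38 gene Mapk14 (4.98 ± 0.57). Map2k6, a p38 activator, passed on no array, and Mapk8, the other widely expressed JNK gene, on 3. On replicate 1, 5 were at least 1.5-fold higher and 1, Map2k1, which encodes the ERK activator MEK1, was lower, beside 14.5% and 10.3% of all detected genes. With normexp 3 were higher and 4 lower. Mapk14 read 5.81 on replicate 1 and from 4.62 to 4.85 elsewhere. Named after their values were seen, Srf, which binds the CArG box, was higher on replicate 1 by 0.75 log2 units, and its partners Elk1, Elk3 and Elk4 lay within 0.28 of the mean of the others.

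Genes that AP-1 or EGR factors are known to activate were detected in part, 15 of 28, against 53.1% of all genes. The urokinase receptor gene Plaur lay at 0.68 ± 0.09, the matrix metalloproteinase genes Mmp9 at 0.73 ± 0.47 and Mmp12 at 2.10 ± 0.68. Plau, Mmp13 and Il6 were among 9 that were well above background on no array. On replicate 1, 7 of the 15 were at least 1.5-fold lower (Mmp12, Il1b, Tnf, Ccl2, Cxcl2, Hmox1 and Icam1) and 1, the cyclin gene Ccnd1, was higher, beside the 10.3% and 14.5% of all detected genes. Ccl2, a chemokine that draws monocytes, had the largest difference: it read 5.83, 7.70, 7.73 and 7.81 on replicates 1 to 4. Plaur, Cdkn1a, Gclc and Cd44 of the same list lay within 0.13 log2 units of the mean of the others on replicate 1, so the low values did not extend to every listed target. Apart from Mmp12, Il1b, Ccl2 and Plaur, the genes named for their values on replicate 1 were chosen after those were seen. Several of these cytokine genes are also controlled by NF-kB, and the list was drawn up with earlier results of these arrays known.

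**Figure D5:**
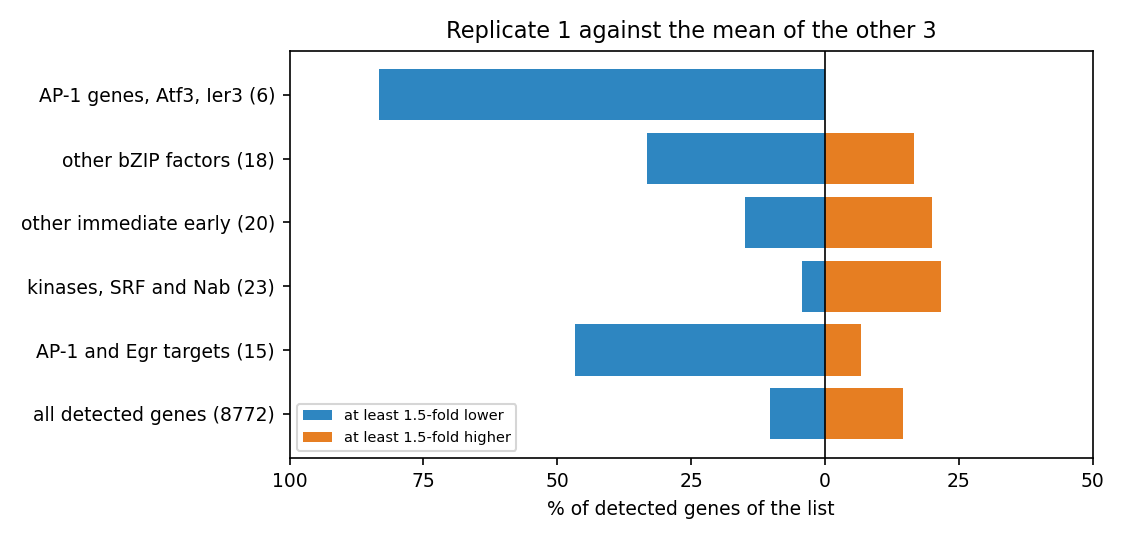
Share of the detected genes of each list (percent, number detected in parentheses) that were at least 1.5-fold lower (left) or higher (right) on replicate 1, relative to the other 3 averaged. The AP-1 genes with Atf3 and Ier3 had 5 of 6 lower and the AP-1 and EGR targets 7 of 15, against 10.3% of all 8772 detected genes.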

How the data were processed

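Per the labels, total RNA (100 ng, integrity number above 7.5) was labelled with Cy3, and per the submitters' processing notes spot brightness was extracted by Agilent Feature Extraction 11.0.1.1. Deposited values are linear spot intensity values, per the file headers: a background-handled processed signal and median foreground and background signals, none scaled between arrays. Per the file headers all arrays were scanned once on 1 slide, which leaves no slide or scan batch to test, and array position equals replicate.

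Control spots (4259 of 62976) and outlier spots (440 to 1206 per array) were left out, and log2 signals of a probe's spots averaged. Accessions were matched without version to RefSeq symbols of GRCr8, for names: 17614 of 40539 matched. Each gene took the average over its detected probes. The 75th percentile was taken over 45280 probes. The limma test (limma 3.58.1, R 4.3.3; Benjamini-Hochberg over all probes) compared the mean log2 signal with the 95th percentile of negative controls. It and the fold call were tested on simulated data. For the fold call the simulated spread was smaller than that of the detected genes and the planted shifts were large beside it. That simulation checks the calculation and not the error rate on these arrays.

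The 10 genes and the lists were chosen with earlier results of these data known. Of each list the text names the first 4 genes detected on all arrays, the first 3 detected on none and the one with the largest deviation on 1 replicate; others are said to be named after their values were seen, and some that the rule names are not reported here. Normexp used median signals, as no mean foreground signal was used here. Python 3.11.15 and matplotlib 3.10.9 drew the figures.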

Additional observations from a re-analysis of the deposited data

Results flagged for a closer look

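Fosl2 was singled out because its level on replicate 1 (-0.95) lay apart from the other 3, with a gap of 0.94 of the whole range. Of the 6 detected genes it alone passed Dixon's 95% limit, and among all detected genes 8.41% did, where chance would give about 1 in 20.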

How the results depend on the processing

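No paired analysis was possible because the series has 1 group. Between 6 and 9 of the 10 genes were detected under the alternatives and 1, Fosl1, on no array in any of them. The median difference on replicate 1 stayed between -0.81 and -0.58. The count of genes at least 1.5-fold lower on replicate 1 fell from 5 to 3 with normexp and rose to 6, with Fos, under the limma call, detection on at least 3 arrays and the call met by as many spots as failed. Normexp also gave 2 genes higher on replicate 2, and Fos on replicate 1 turned from -1.10 to 0.17. Its offset of 50 exceeds the signals of Fos on all arrays and in part sets that turn. When Egr1 counted as detected (positive-and-significant flag, limma call, or detection on at least 3 arrays), 1 gene was higher on replicate 1, 1 lower on replicate 3 and 1 lower on replicate 4, against 0 each. That gene was Egr1 each time, at 1.55, -1.33 and -0.62 log2 units from the mean of the others. Why its replicates differed was not tested. Calling a probe detected when as many spots passed as failed, chosen after seeing the data, added Fos. Leaving out 1 replicate gave a median SD between 0.18 and 0.48, the lowest without replicate 1. In those settings the number past 1.5-fold higher was 0 to 1 on replicate 1, 1 to 3 on replicate 2 and 0 to 1 on replicate 4, and 0 to 2 were lower on replicate 4. The percentile over detected probes lowered all levels by 3.00 to 3.15. The first probe alone put Jund at 3.46. Dim signals limit Fos, Fosb and Egr1, and the signals of Fosl1 lay below the negative-control limit.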
